A study of Mus musculus with 6 samples.

Results

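The H2 complex of the mouse, its major histocompatibility complex, is described here through the 37 genes whose symbol starts with H2-, out of 41325 gene rows in each library. They were taken by name alone, whatever their biotype, and all lie on chromosome 17 between positions 33996017 and 37483552 (coordinates of the files, GRCm38). By symbol, 2 are classical class I genes (H2-K1 and H2-D1), 25 are nonclassical class I genes (the H2-Q, H2-T and H2-M genes and H2-Bl), 9 are class II genes and 1, H2-Ke6, belongs to neither class. The series compared 3 bulk RNA-seq libraries from female ICR mice given an elemental diet with 3 from mice given saline, to ask how the diet bears on glands damaged by 5-fluorouracil (5-FU). ICR is an outbred stock; the mice were 10 weeks old when bought, had 7 days to settle, and their H2 haplotypes are not given in the sources used. All mice of both groups had 5-FU, an antimetabolite, by intraperitoneal injection at 20 mg/kg/day on 2 days a week for 3 weeks. The elemental diet group also received 1.6 kcal in 0.8 mL per day of Elental, a liquid formula with amino acids in place of whole protein, by mouth in 2 portions a day on 5 days a week. The control group received the same volume of saline on the same schedule. Mice without 5-FU were not part of the comparison. The labels give 3 mice a group but do not tie each library to its own mouse, and the p-values therefore cover only the spread among libraries, which may be technical.

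Class I molecules consist of a heavy chain, encoded by an H2 gene, and beta-2 microglobulin, and show peptides from inside the cell to CD8 T cells; nearly all nucleated cells carry them. Class II molecules are pairs of an alpha and a beta chain that show peptides from endocytosed protein to CD4 T cells, and are made mainly by B cells, dendritic cells and macrophages. Nonclassical class I genes are less polymorphic, often restricted to certain tissues, and serve as ligands of natural killer and gamma delta T cell receptors or carry special peptides.

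Library totals ran from 29053287 to 33073125 reads on genes, of which 86.0% to 87.7% were unique to 1 gene. Levels are given as CPM, reads per 1e+06 reads scaled with edgeR's TMM factors; 3 reads, the limit that a count of 0 allows for counting error, equal 0.0907 to 0.103 CPM of unscaled library totals. The tissue label is salivary gland, yet 5 of 14 salivary gland markers (Smgc, Pip, Bpifa1, Prb1 and Dcpp1) were at 0 in all 6 libraries and the summed level of the list was 7.27 to 10.8 CPM with the diet and 17.4 to 19.2 CPM with saline. B cell markers summed to 930 to 994 CPM with the diet against 6593 to 6854 CPM with saline, with all 10 called lower, and T cell markers to 79.2 to 87.3 CPM against 568 to 724 CPM, also with all 10 called lower. Erythroid markers summed to 41611 to 42598 CPM against 2728 to 4253 CPM and proliferation markers to 4507 to 5266 CPM against 157 to 163 CPM, with all 10 of each list called higher. The groups differed across the whole table: of 18303 genes tested, 7352 were called lower with the diet and 6951 higher (edgeR quasi-likelihood test, Benjamini-Hochberg adjusted p under 0.05), with a median log2 fold change of -0.08. Without composition scaling these counts were 9265 and 5407 with a median of -0.39, and with upper quartile scaling 9051 and 5601 with a median of -0.35.

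With the elemental diet, H2 reads were lower in nearly every member that could be tested. Of the 37 members, 27 passed the filter on low counts and 10, all H2-M genes, did not; each of the 27 had at least 15 reads in every library. Of the 27, 25 were called lower and 2, H2-T24 and H2-T22, higher; none was left uncalled. Of all genes tested, 40.2% were called lower and 38.0% higher. The median log2 fold change of the 27 (elemental diet over saline) was -2.14, against -0.08 over all genes tested. In 25 members every library of the diet group lay below every saline library, an order found in 41.9% of all genes tested. By class, the median was -2.60 over 9 class II genes, -1.96 over 15 nonclassical genes and -1.02 over the 2 classical genes. The 25 lower calls were made under each of the scalings tried, whereas the call on H2-T22 was not. In bulk tissue, fewer cells of a type and less RNA per cell cannot be told apart.

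**Figure D1:**
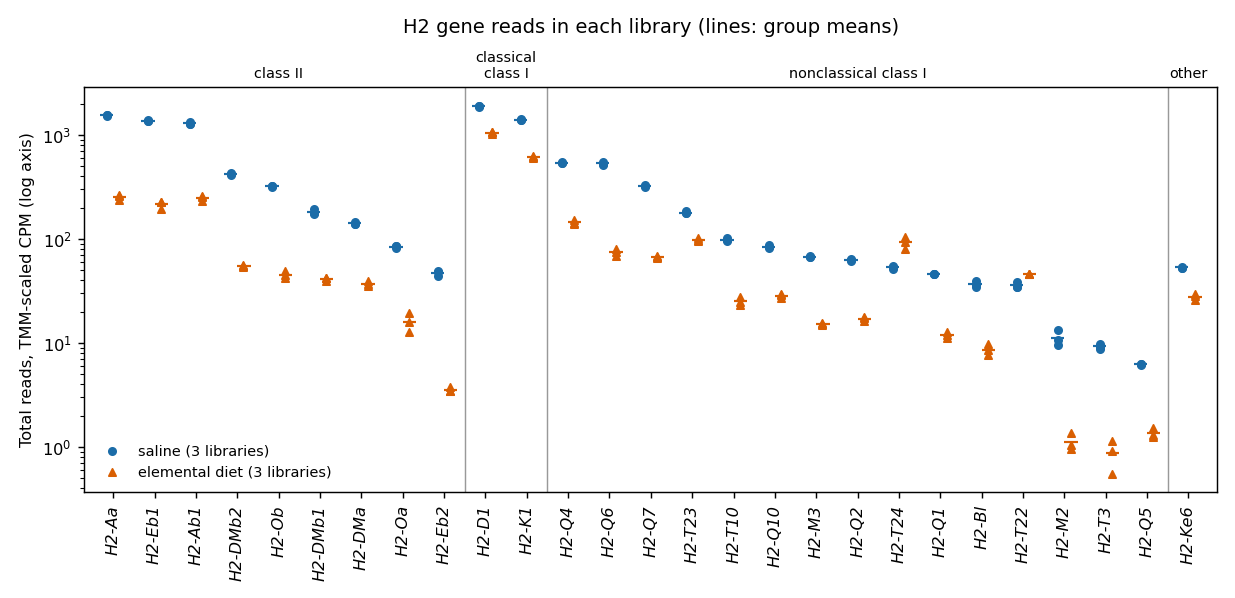
Total reads of the 27 tested H2 genes in each library, in TMM-scaled CPM on a log axis, ordered by class; circles are the 3 saline libraries, triangles the 3 elemental diet libraries and short lines the group means. The groups do not overlap in any gene, and H2-T24 and H2-T22 are the genes in which the triangles lie above the circles.

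The summed reads of the classes fell by different amounts. Class II genes together stood at 5509, 5366 and 5376 CPM in the saline libraries and at 942, 949 and 858 CPM in the elemental diet libraries, a 5.91-fold difference of the means. Nonclassical genes together stood at 2110, 2066 and 2083 CPM with saline and at 638, 628 and 634 CPM with the diet, 3.29-fold lower. The 2 classical genes together stood at 3343, 3280 and 3276 CPM with saline and at 1692, 1692 and 1614 CPM with the diet, 1.98-fold lower. The spread within groups was small beside these steps in every class. On the authors' TPM scale, which is per length, class II made up 61.3% ± 0.0334 (SD, n = 3) of all H2 signal with saline and 37.9% ± 1.16 (SD, n = 3) with the diet. The classical share was 24.3% ± 0.0841 (SD, n = 3) with saline and 45.2% ± 0.479 (SD, n = 3) with the diet, so the largest class was class II in the saline libraries and classical class I in the diet libraries. The nonclassical share was 13.7% ± 0.0568 (SD, n = 3) and 15.6% ± 0.712 (SD, n = 3). Markers of the cells that make class II moved as well. B cell markers summed 6.97-fold lower with the diet. Macrophage markers summed to 653 to 801 CPM against 1508 to 1840 CPM, with 9 of 10 called lower. Dendritic cell markers summed to 104.6 to 112 CPM against 124 to 139 CPM, with 5 called lower and 4 higher. Those dendritic counts were near the shares over all genes tested, 40.2% called lower and 38.0% higher. The part of these cells in the H2 results was not tested.

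**Figure D2:**
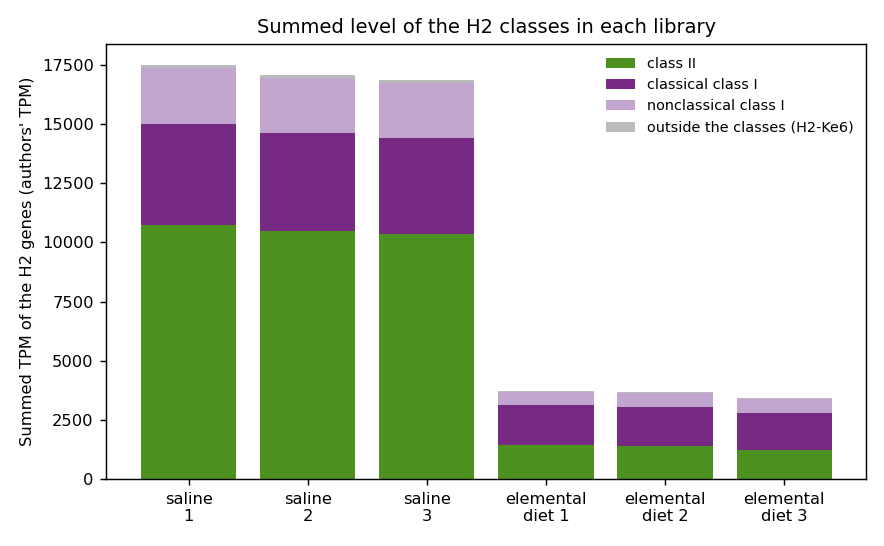
Summed level of the H2 classes in each library, in the authors' TPM, as stacked bars from 0. The green class II segment is the largest in the 3 saline libraries, and the dark purple classical class I segment is the largest in the 3 elemental diet libraries.

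Within single libraries, the order of the H2 genes by TPM changed with the class. In the saline libraries H2-Eb1 led with 3540, 3524 and 3455 TPM, followed by H2-Aa with 2804, 2731 and 2740 TPM. H2-Ab1, with 2558, 2435 and 2405 TPM, and H2-D1, with 2444, 2428 and 2337 TPM, came next and overlapped. In the elemental diet libraries H2-D1 led with 1059, 1042 and 983 TPM, and H2-K1 followed with 628, 604 and 582 TPM. H2-Eb1, at 459, 446 and 377 TPM, stood above H2-Ab1, at 374, 376 and 337 TPM, with the lowest of its libraries just above the highest of H2-Ab1, and H2-Aa, at 357, 361 and 320 TPM, overlapped H2-Ab1. H2-T24 moved from rank 19 of the H2 genes with saline to rank 7 with the diet. Its level was 71.0, 67.4 and 67.8 TPM with saline and 88.9, 102 and 115 TPM with the diet.

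Class II genes are switched on together through a shared upstream element, in which an X box, bound by the RFX complex, and a Y box, bound by NF-Y, hold the transactivator CIITA. The stretch that carries the Y box is shown for an alpha chain, a beta chain and the H2-O beta chain, which fell together (RefSeq windows, GRCm38.p6, 130 to 26 bases before the gene start, sense strand of the gene). They lie at chr17:34287849-34287953 (minus strand), chr17:34305737-34305841 (plus strand) and chr17:34238775-34238879 (plus strand). Capitals mark the Y box core GATTGG or its reverse complement, and the X box letters AGNNACNGA.
H2-Aa: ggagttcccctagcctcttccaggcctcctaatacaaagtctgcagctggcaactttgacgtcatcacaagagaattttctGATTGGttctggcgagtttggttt
H2-Eb1: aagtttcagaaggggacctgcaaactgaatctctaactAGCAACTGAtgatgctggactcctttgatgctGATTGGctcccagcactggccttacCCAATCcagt
H2-Ob: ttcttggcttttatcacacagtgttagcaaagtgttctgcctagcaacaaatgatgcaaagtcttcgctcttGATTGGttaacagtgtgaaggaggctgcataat

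Of the 37 members 31 had a RefSeq window of 250 bases before to 50 after the start; H2-Ab1, H2-Q1, H2-Q5, H2-T24, H2-Bl and H2-T10 had none. The windows follow RefSeq starts, which for H2-DMa and H2-DMb2 lie away from the gene starts of the files. The H2-DMa window spans 34125268 to 34125567, before its gene start at 34135182. The H2-DMb2 window spans 34144999 to 34145298, inside the gene, which starts at 34143307. GATTGG was found on either strand in 8 of 8 class II windows and in 16.1% of all 32851 windows. The shorter ATTGG, which lies inside GATTGG, was in 8 of 8 class II windows and in 37.4% of all. AGNNACNGA was found on either strand in 5 of 8 class II windows (H2-DMb1, H2-Eb1, H2-Eb2, H2-Oa and H2-Ob) and in 17.7% of all. In H2-DMb1, H2-Eb1, H2-Eb2 and H2-Oa a match lay upstream of the Y box core on the same strand. Match and core lay 95 and 62 bases before the start in H2-DMb1, 92 and 60 in H2-Eb1, and 133 and 101 in H2-Eb2. In H2-Ob the match lay after the gene start, on the other strand. In H2-Oa matches lay 187, 141 and 4 bases before the start, and the Y box core lay at 44. Of these matches the one at 141 was on the strand of the core, farther from it than in the other genes. The Y box core was not limited to class II or to genes that fell: the windows of both classical genes and of 14 of 20 nonclassical genes held it, H2-T22 among them. These matches describe letters in a window and name no bound factor.

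The I-A and I-E genes, whose products present peptide, were among the most abundant H2 transcripts. H2-Aa (alpha chain of I-A, chr17:34282744-34287827, minus strand) had 1557, 1520 and 1552 CPM with saline and 259, 267 and 238 CPM with the diet. H2-Ab1 (beta chain of I-A, chr17:34263209-34269418, plus strand) had 1346, 1282 and 1283 CPM with saline and 252, 256 and 234 CPM with the diet. H2-Eb1 (beta chain of I-E, chr17:34305877-34316199, plus strand) had 1380, 1374 and 1369 CPM with saline and 228, 226 and 196 CPM with the diet. The 3 genes were high in all saline libraries and low in all diet libraries, with log2 fold changes of -2.60 (SE 0.05), -2.40 (SE 0.05) and -2.67 (SE 0.06). H2-Eb2 (chr17:34325665-34340229, plus strand), a neighbouring beta chain gene of far lower level, had 44.3, 48.2 and 49.4 CPM with saline and 3.42, 3.44 and 3.75 CPM with the diet. Its log2 fold change of -3.74 (SE 0.09), 13.4-fold lower, was the largest fall among the 27 tested members. Nearly all reads of these 4 genes were unique to them (99.9% or more in each library).

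H2-DM, a class II-like pair that edits the peptides bound to class II, was also lower in each of its chains. H2-DMa, the alpha chain (chr17:34135182-34139101, plus strand), had 146, 140 and 138 CPM with saline and 37.1, 39.0 and 35.0 CPM with the diet, a log2 fold change of -1.93 (SE 0.06). The 2 beta chain genes are adjacent copies that share 20.0% (H2-DMb2) and 19.1% (H2-DMb1) of their 75-base stretches with other transcripts, mostly each other's. H2-DMb1 (chr17:34153072-34160230, plus strand) had 193, 178 and 174 CPM with saline and 41.8, 41.9 and 39.8 CPM with the diet, a log2 fold change of -2.14 (SE 0.06). H2-DMb2 (chr17:34143307-34151553, plus strand) had 432, 420 and 411 CPM with saline and 55.6, 53.2 and 54.7 CPM with the diet, a log2 fold change of -2.95 (SE 0.05). The ratio of H2-DMb2 to H2-DMb1 reads was 2.24, 2.36 and 2.36 with saline and 1.33, 1.27 and 1.37 with the diet. With unique reads alone the mean ratio was 2.28 and 1.32.

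H2-O, which restrains H2-DM and is best known from B cells, was lower too. H2-Ob, the beta chain (chr17:34238903-34245907, plus strand), had 326, 323 and 314 CPM with saline and 48.8, 42.0 and 45.1 CPM with the diet, a log2 fold change of -2.83 (SE 0.06). H2-Oa, the alpha chain (chr17:34092340-34095234, plus strand), had 84.7, 82.3 and 85.2 CPM with saline and 15.99, 19.3 and 12.7 CPM with the diet, a log2 fold change of -2.39 (SE 0.12). The diet libraries of H2-Oa were the most scattered of the class II genes, and still lay far below the saline libraries. H2-Oa lies inside the antisense gene BC051537 over its whole 2895 bases, and 55.6% of its reads with saline and 57.7% with the diet were unique. The ratio of H2-Ob to H2-DMa was 2.24, 2.32 and 2.27 with saline and 1.32, 1.08 and 1.29 with the diet, lower in all diet libraries than in any saline library. All 9 class II genes were called, with edgeR adjusted p from 8.10e-15 (H2-DMb2) to 4.72e-08 (H2-Oa).

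Genes outside the H2 names that load, process or regulate class II moved in both directions, as genes did over the whole table. Of all genes tested, 40.2% were called lower and 38.0% higher. Of 10 processing and chaperone genes 8 were called lower and 2 higher, with a median log2 fold change of -1.57. Cd74, the invariant chain that fills the class II groove during assembly, stood at 721 ± 47.2 CPM (SD, n = 3) with the diet and 3950 ± 88.2 CPM (SD, n = 3) with saline, a log2 fold change of -2.45 (SE 0.05). The lysosomal proteases differed: Ctss, which trims the invariant chain, fell by 2.11 on the log2 scale, Ctsb fell by 0.67 and Ctsd rose by 0.25. March8, a ubiquitin ligase that removes class II and other proteins from the surface, rose by 3.34, while March1, its relative in B and dendritic cells, fell by 1.91 (both named after their values were seen). Of 11 class II regulators 6 were called lower and 5 higher, with a median of -0.23. Ciita stood at 37.3 ± 1.013 CPM (SD, n = 3) with the diet and 221 ± 10.96 CPM (SD, n = 3) with saline, a log2 fold change of -2.57 (SE 0.06), close to that of H2-Aa. Irf8 fell by 2.18 and Creb1 by 0.23, whereas Nfya, a subunit of NF-Y, rose by 0.72. The other NF-Y subunits rose as well, Nfyb by 0.81 and Nfyc by 0.48. Of the RFX subunits, Rfx5 fell by 1.42, while Rfxap rose by 1.03 and Rfxank by 0.24. The RFX genes, Nfyb and Nfyc were also named after their values were seen.

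The classical class I genes fell less than the class II genes. Their promoters hold enhancer motifs that were not found in the class II windows, and a link between motif and fall was not tested. The stretch is shown for H2-K1 and H2-D1, for H2-Q6, which fell further, for H2-Q4, and for H2-T22, which did not fall (RefSeq windows, GRCm38.p6, 200 to 41 bases before the gene start, sense strand of the gene). They lie at chr17:34000374-34000533 (minus strand), chr17:35262894-35263053 (plus strand), chr17:35424650-35424809 (plus strand), chr17:35379417-35379576 (plus strand) and chr17:36042783-36042942 (minus strand). Capitals mark the kappa B letters GGGATTCC, a site type of NF-kappa B, and GTGAAAC or its reverse complement, part of the site of interferon regulatory factors (IRF).
H2-K1: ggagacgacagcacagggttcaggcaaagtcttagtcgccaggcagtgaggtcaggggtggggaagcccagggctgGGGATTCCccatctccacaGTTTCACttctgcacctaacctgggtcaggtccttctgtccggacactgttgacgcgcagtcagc
H2-D1: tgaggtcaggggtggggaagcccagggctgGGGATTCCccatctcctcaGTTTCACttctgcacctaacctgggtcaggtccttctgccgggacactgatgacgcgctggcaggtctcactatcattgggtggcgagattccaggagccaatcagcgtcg
H2-Q6: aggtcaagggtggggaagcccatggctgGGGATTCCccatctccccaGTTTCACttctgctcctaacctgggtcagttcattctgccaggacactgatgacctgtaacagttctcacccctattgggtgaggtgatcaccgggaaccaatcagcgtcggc
H2-Q4: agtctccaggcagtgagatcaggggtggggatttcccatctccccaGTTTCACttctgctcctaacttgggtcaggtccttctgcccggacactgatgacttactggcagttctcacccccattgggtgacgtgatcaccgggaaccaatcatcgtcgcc
H2-T22: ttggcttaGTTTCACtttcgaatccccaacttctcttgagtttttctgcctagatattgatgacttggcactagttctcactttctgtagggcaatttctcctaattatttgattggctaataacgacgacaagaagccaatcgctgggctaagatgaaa

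Searched on both strands of the whole windows, GTGAAAC was in both classical windows, in 7 of 20 nonclassical windows (H2-M3, H2-Q10, H2-Q4, H2-Q6, H2-Q7, H2-T22 and H2-T3), in 0 of 8 class II windows and in 2.50% of all 32851. GGGATTCC was in both classical windows, in those of H2-Q6 and H2-Q7, in 0 of 8 class II windows and in 1.06% of all. H2-Q6 and H2-D1 hold the same 2 motifs, and H2-Q6 fell 7.14-fold while H2-D1 fell 1.80-fold. H2-T22, called higher, and H2-Q4, called lower, both held GTGAAAC without the exact letters GGGATTCC. The H2-Q4 stretch reads GGGGATTTCCC where that of H2-D1 reads GGGGATTCCCC, a near match that the exact search left out. Whether these letters bear on the size of the change was not tested.

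H2-D1 (chr17:35262730-35267499, plus strand) had 1911, 1900 and 1868 CPM with saline and 1065, 1074 and 1018 CPM with the diet, a log2 fold change of -0.85 (SE 0.04). H2-K1 (chr17:33996017-34000333, minus strand) had 1432, 1381 and 1408 CPM with saline and 627, 618 and 596 CPM with the diet, a log2 fold change of -1.20 (SE 0.04). Both were lower in all diet libraries, with edgeR adjusted p of 2.73e-10 and 8.47e-12. The K1 to D1 read ratio was 0.749, 0.727 and 0.754 with saline and 0.588, 0.575 and 0.585 with the diet. B2m, the light chain that every class I molecule needs, stood at 866 ± 14.6 CPM (SD, n = 3) with the diet and 1582 ± 11.6 CPM (SD, n = 3) with saline, a log2 fold change of -0.87 (SE 0.04). That is close to the value of H2-D1, -0.85 (SE 0.04).

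For the class I lists as well, the share over all genes tested was 40.2% called lower and 38.0% higher. Of 16 class I peptide loading genes 11 were called lower and 5 higher, with a median log2 fold change of -0.57. B2m, above, was the most abundant of them. The next 3 were chaperones of the endoplasmic reticulum, which serve many proteins besides class I, and these rose: Calr by 0.77, Canx by 1.16 and Hspa5 by 0.41. Tap1 (-1.59) and Tap2 (-1.17), the peptide pump, Tapbp (-0.87), its bridge to class I, and Psmb8 (-1.93) and Psmb9 (-1.34), of the immunoproteasome, fell; these 5 were named after their values were seen. Of 11 class I regulators 9 were called lower, 0 higher and 2 not called, with a median of -0.85. Nlrc5, the class I transactivator, stood at 33.1 ± 2.27 CPM (SD, n = 3) with the diet and 128 ± 5.09 CPM (SD, n = 3) with saline, a log2 fold change of -1.96 (SE 0.06). Nfkb1 fell by 1.04, while Sp1 (0.08) and Rela (-0.06) were not called.

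Among nonclassical genes 15 of 25 were tested, with 13 called lower and 2 higher. The 7 H2-Q genes, which lie in a row beside H2-D1, were all lower. H2-Q4 (chr17:35379617-35385290) had 551, 538 and 533 CPM with saline and 151, 142 and 140 CPM with the diet. H2-Q6 (chr17:35424850-35430055) had 550, 516 and 531 CPM with saline and 79.9, 75.4 and 68.1 CPM with the diet. The ratio of H2-Q4 to H2-Q6 reads, not corrected for length, was 1.003, 1.04 and 1.004 with saline and 1.89, 1.88 and 2.05 with the diet. Per length the 2 genes were not level with saline: H2-Q4 had 602, 593 and 574 TPM and H2-Q6 had 715, 663 and 677 TPM. With the diet H2-Q4 had 128, 121 and 118 TPM and H2-Q6 had 82.9, 76.4 and 67.7 TPM. H2-Q7 (chr17:35439155-35443773), which with H2-Q6 encodes the Qa-2 antigen, had 317, 322 and 329 CPM with saline and 66.1, 67.4 and 69.0 CPM with the diet. The log2 fold changes were -1.91 (SE 0.05) for H2-Q4, -2.84 (SE 0.06) for H2-Q6 and -2.26 (SE 0.05) for H2-Q7.

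The other H2-Q genes were less abundant. H2-Q10 (chr17:35470089-35474563), known for a secreted product of the liver, had 86.7, 83.6 and 81.8 CPM with saline and 27.0, 28.95 and 29.4 CPM with the diet, and fell by 1.56. H2-Q2 (chr17:35342242-35346762) had 63.7, 63.2 and 61.3 CPM with saline and 17.3, 17.6 and 16.2 CPM with the diet, and fell by 1.88. H2-Q1 (chr17:35320405-35325099) had 46.4, 45.6 and 46.1 CPM with saline and 12.7, 11.3 and 11.9 CPM with the diet, and fell by 1.95. In each of these genes all diet libraries lay below all saline libraries. H2-Q5 (chr17:35394126-35397800), annotated as a polymorphic pseudogene, had 6.30, 6.13 and 6.34 CPM with saline and 1.51, 1.29 and 1.25 CPM with the diet, and fell by 2.21.

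The H2-T genes held both directions. H2-T24 (chr17:36005695-36020560, minus strand) had 54.4, 53.7 and 52.0 CPM with saline and 80.4, 93.7 and 105.6 CPM with the diet, a log2 fold change of 0.80 (SE 0.08, edgeR adjusted p = 4.62e-06). All diet libraries lay above all saline libraries, with a wide spread in the diet group. H2-T22 (chr17:36037128-36042747, minus strand), a ligand of some gamma delta T cell receptors, had 34.2, 34.8 and 38.8 CPM with saline and 45.5, 45.6 and 45.6 CPM with the diet, a log2 fold change of 0.34 (SE 0.06, edgeR adjusted p = 0.000214). This call ended with upper quartile scaling (0.07, edgeR adjusted p = 0.309) and without composition scaling (0.03, edgeR adjusted p = 0.613), within a range of 5.70e-06 to 1 over the 17 alternatives tried. H2-T24 stayed called under each of them, at 0.53 and 0.49 under those 2 scalings. Relative to H2-D1 in the same library, which needs no scaling, H2-T22 was at 0.0179, 0.0183 and 0.0208 with saline and at 0.0427, 0.0424 and 0.0447 with the diet. H2-D1 itself was called lower, so this ratio would rise even if H2-T22 did not change. In the authors' TPM the groups overlapped: H2-T22 had 31.6, 31.8 and 35.5 TPM with saline and 34.2, 32.9 and 33.2 TPM with the diet.

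Their neighbours moved the other way. H2-T23 (chr17:36029773-36032855, minus strand), the gene of Qa-1, a ligand of the inhibitory receptor CD94/NKG2A, had 177, 184 and 177 CPM with saline and 102, 94.98 and 97.4 CPM with the diet, and fell by 0.87 (SE 0.05). Its ratio to H2-D1 was 0.0924, 0.0967 and 0.0947 with saline and 0.0959, 0.0884 and 0.0956 with the diet, so the groups overlapped (exact two-sided permutation p = 0.8, adjusted 0.8 over 16 ratios). H2-T10 (chr17:36115876-36121465, minus strand), a relative of H2-T22 annotated as a polymorphic pseudogene, had 97.4, 94.96 and 102 CPM with saline and 27.8, 24.8 and 23.1 CPM with the diet, and fell by 1.96 (SE 0.07). The H2-T22 to H2-T10 ratio was 0.351, 0.366 and 0.382 with saline and 1.64, 1.83 and 1.97 with the diet. H2-Bl (chr17:36080115-36084223), also a polymorphic pseudogene, had 39.1, 36.3 and 34.9 CPM with saline and 8.53, 7.62 and 9.73 CPM with the diet, and fell by 2.09. H2-T3 (chr17:36185572-36190287), the thymus leukaemia antigen, which binds CD8 alpha homodimers, had 8.84, 9.16 and 9.82 CPM with saline and 0.551, 0.918 and 1.13 CPM with the diet, and fell by 3.42 (SE 0.22). Its diet libraries held 15, 27 and 29 reads.

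An antisense gene overlaps H2-T24 and H2-T22. The gene, A930015D03Rik, on the plus strand from 35994453 to 36038435, covers all 14866 bases of H2-T24, all 3083 bases of H2-T23 and 1308 bases of H2-T22. It was itself called higher, with a log2 fold change of 1.14 and 7659 reads with the diet against 4258 with saline. Of these, 733 with the diet and 335 with saline were exon reads. Over total exon reads A930015D03Rik was called higher (1.30), but over unique exon reads it was not (0.80, edgeR adjusted p = 0.058). No source used here says whether counting used strand, and without it these genes' reads cannot be told apart. Only 28.4% of H2-T24 reads with the diet and 23.6% with saline were unique; over these the log2 fold change was 1.04, over exon reads 0.87 and over unique exon reads 0.92, each called. Reads across exon junctions of H2-T24 numbered 1669 with the diet and 1012 with saline, a ratio of 2.02 in CPM, and those of H2-T22 2002 and 1447, a ratio of 1.69. For H2-T22 the unique reads gave a log2 fold change of 0.47. With the diet 2171 of 7641 H2-T24 reads and 6856 of 7659 A930015D03Rik reads were unique. H2-T24 shares 0.474% of its 75-base stretches with other annotated transcripts. H2-T22 shares 46.3% of its 75-base stretches with other transcripts, mostly of A930015D03Rik and H2-T10. The part of the antisense gene in the H2-T24 and H2-T22 results was not tested.

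The H2-M genes split by abundance. H2-M3 (chr17:37270220-37274484), which presents N-formylated peptides of bacteria and mitochondria, had 67.1, 67.6 and 68.2 CPM with saline and 15.6, 15.2 and 14.7 CPM with the diet, and fell by 2.16 (SE 0.06). H2-M2 (chr17:37480851-37483552) had 9.56, 10.8 and 13.3 CPM with saline and 1.36, 0.953 and 1.06 CPM with the diet, and fell by 3.32 (SE 0.20). The groups were far apart in both genes. The other 10 had few reads: H2-M5 had 13 over the diet libraries and 25 over the saline libraries, H2-M9 4 and 10, H2-M10.1 0 and 6, H2-M10.2 3 and 1, H2-M11 0 and 2, H2-M10.3 1 and 0, and H2-M10.5 0 and 1. H2-M10.4, H2-M1 and H2-M10.6 had no read in any library. H2-M1 and H2-M10 genes are known from sensory neurons of the vomeronasal organ. At these counts no difference between the groups was detectable.

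H2-Ke6 (chr17:34026033-34028060), which carries the H2 name for its position and encodes a steroid and fatty acid dehydrogenase, had 54.0, 53.1 and 52.6 CPM with saline and 29.7, 28.1 and 26.04 CPM with the diet. It fell by 0.93 (SE 0.06), less than most H2 genes. It shares 94.2% of its 75-base stretches with other transcripts, and 43.8% of its reads were unique. Of the other genes between the outermost H2 genes 128 were tested: 64 (50%) were called lower, 40 (31.3%) higher and 24 were not called, with a median log2 fold change of -0.42. Over all genes tested 40.2% were called lower and 38.0% higher, with a median of -0.08. Class I-like genes elsewhere in the genome were mostly lower, with 9 of 10 tested called lower and 1 higher and a median of -1.40. Cd1d1, which presents lipids, fell by 2.37, Fcgrt, the neonatal Fc receptor, by 0.95, and Hfe, a regulator of iron uptake, by 0.78. Ulbp1, a ligand of the receptor NKG2D, rose by 2.50, and by 1.197 with unique reads alone; 39.1% of its reads were unique with the diet and 94.3% with saline, and 73.4% against 23.2% lay in introns.

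Counting only reads unique to a gene left the picture in place. With unique reads, 25 of 27 members were called lower and 2 higher, where 41.1% of the 16819 genes tested were called lower and 38.8% higher. The same 2 genes rose. Unique reads made up 98.5% of class II reads, 98.1% of classical and 75.5% of nonclassical reads. The share differed between the groups in a few genes, such as H2-Q2, with 75.2% to 76.5% per library with saline and 89.2% to 93.2% with the diet, and H2-Bl, with 84.8% to 87.7% and 70.3% to 78.6%. For these the log2 fold change moved from -1.88 to -1.65 and from -2.09 to -2.36 with unique reads. Intron reads were 8.39% to 8.83% of the library with the diet and 13.8% to 14.4% with saline, and with exon reads alone the counts were again 25 and 2.

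**Figure D3:**
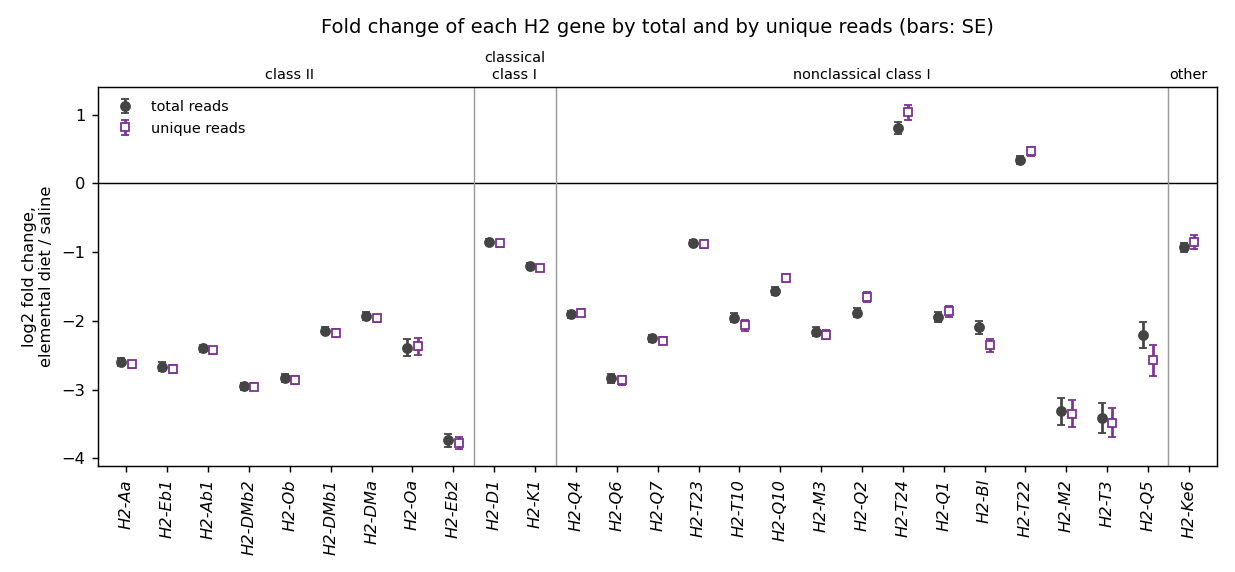
Log2 fold change of each tested H2 gene, elemental diet over saline, by total reads (filled circles) and by unique reads (open squares), with bars of 1 standard error. All but H2-T24 and H2-T22 lie below 0 on both measures, and the class II genes lie between -1.93 and -3.74 by total reads.

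**Figure D4:**
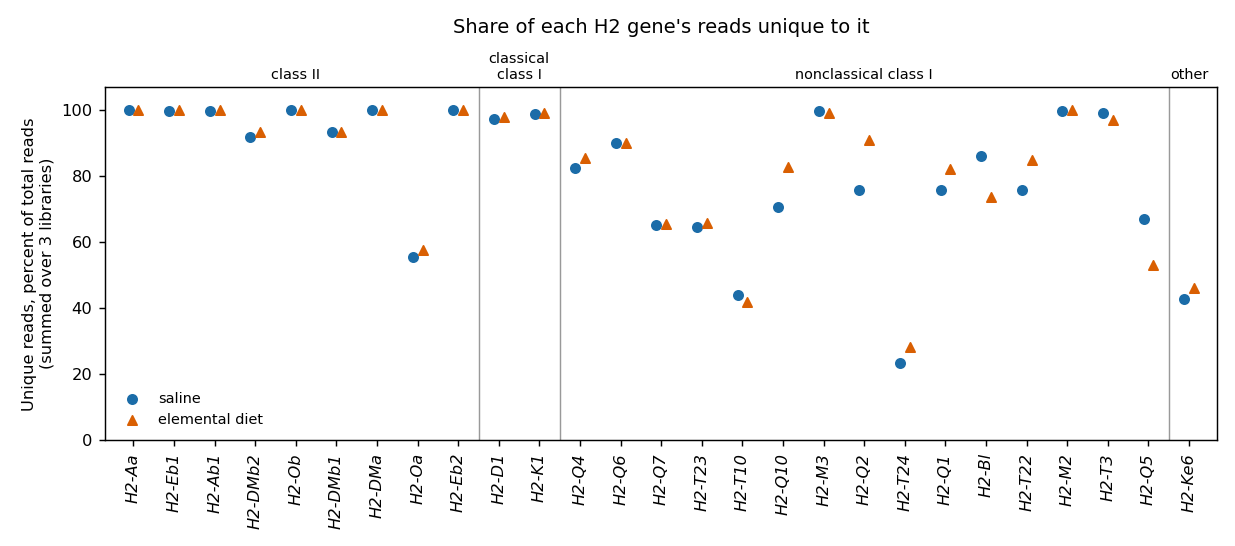
Share of the reads of each tested H2 gene that were unique to it, in percent of total reads summed over the 3 libraries of a group. Class II genes other than H2-Oa lie between 91.9% and 100%, while H2-T24 has the lowest share of the 27 tested genes, 23.6% with saline and 28.4% with the diet.

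Over the 27 tested members the median coefficient of variation was 2.29% with saline and 5.44% with the diet, against 5.37% and 7.32% over the 15496 genes tested that averaged at least 1 CPM. These sets were not matched for level, on which the measure depends. The most scattered members were H2-T3 with the diet (33.9%) and H2-M2 with saline (17.1%). The ratios between members within a library, which carry no scaling between libraries, were compared for 16 pairs chosen with results known. In 15 pairs the groups did not overlap, each at the exact two-sided permutation p = 0.1 (adjusted 0.107), the smallest that 3 against 3 libraries allow. The exception was H2-T23 to H2-D1. How often pairs of genes outside H2 separate in this way was not counted, so the count shows nothing particular to H2 genes. As a description, H2-Eb2 was 0.0321 to 0.0361 of H2-Eb1 with saline and 0.0150 to 0.0192 with the diet, and H2-Aa was 1.16 to 1.21 of H2-Ab1 with saline and 1.019 to 1.043 with the diet. The step between the groups was smaller in the second pair than in the first.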

How the data were processed

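Polyadenylated RNA was sequenced as 75 bp paired reads from 6 libraries, per the labels' protocols, which name fibroblasts or keratinocytes as the RNA source where the tissue label names salivary gland. The authors deposited read counts of each gene as whole numbers (exon and intron, total and unique), per the file headers, and a TPM column that is per length, also made by the authors per the file headers. The sources used here do not give the aligner, the counter or the use of strand. GRCh37 and GRCm38 are the builds in the submitters' processing notes, and all 37 members were found in GENCODE M21 of GRCm38, 29 with the same coordinates. No 2 replicates had identical counts; the closest pair differed by 2.98 times the sampling noise (median chi-square over genes).

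Total gene counts of the whole table were fitted with edgeR 4.0.16 under R 4.3.3 (robust glmQLFit and two-sided glmQLFTest, TMM scaling, filterByExpr, no replicate block), with Benjamini-Hochberg adjustment at 0.05 over 18303 genes. Standard errors (SE) were taken as the absolute log2 fold change over the root of the F statistic. The common biological coefficient of variation was 8.26%. Unique counts were fitted in the same way over 16819 genes. Fits were tested on simulated data. Alternatives were other scalings, filters and read types, DESeq2 1.42.0, a fold threshold of 1.5, a replicate block and leaving out each library. Members with a mean of at least 1 CPM are named with every library's value; from each pathway list the 4 genes highest in mean CPM are named, with Ciita, Nlrc5, Cd74 and B2m; the value of 1 of these genes is not reported here. Members, classes, lists and pairs were chosen with earlier results of these data known.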

Additional observations from a re-analysis of the deposited data

How the results depend on the processing

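The 25 lower calls of total reads and of unique reads held under every alternative tried, as did the 9 class II, 13 nonclassical and 2 classical ones. The number called higher went from 2 to 1, over all H2 genes and within the nonclassical genes, with upper quartile scaling, without composition scaling and with a fold threshold of 1.5. With unique reads it went from 2 to 1 with the fold threshold of 1.5 alone. H2-T22 is the gene lost each time; that threshold exceeds its fold by construction, and for the scalings, which shift all genes, the cause beyond that shift was not tested. Of the values of single members under alternatives 456 kept their call and 3, all of H2-T22, lost it; none reversed. Replicate numbers did not pair the libraries (correlations of same-numbered deviations 0.117, -0.008 and 0.058). The replicate block changed no H2 call (25 lower, 2 higher) and gave 7316 lower and 6925 higher over all genes. Leaving out any 1 library kept 25 lower and 2 higher. Depth limits the 10 untested H2-M genes, which held at most 25 reads over a group.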
